A study of Macaca mulatta with 2 samples.

Results

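Integrins and the adaptor proteins of focal adhesions make up a set of 32 genes, chosen by gene symbol: 15 integrin alpha subunits, 8 beta subunits and 9 adhesion adaptors. All 32 had a feature among the 24037 features of the deposited matrices, 31 by symbol and ITGB3 (ENSMMUG00000003289) through a reference table of gene identifiers. The cells came from trabecular meshwork, the sieve-like tissue in the corner of the eye through which aqueous humour drains, of rhesus macaques (Macaca mulatta). The series holds 1 single-cell RNA library labelled glaucoma and 1 labelled normal, which its design text describes as monkeys with spontaneous primary open-angle glaucoma and healthy controls. The labels give no treatment, transgene, age or number of animals pooled for either library. The study asked which cell types and genes take part in contraction and relaxation of this tissue in glaucoma.

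Integrins are pairs of 1 alpha and 1 beta subunit that span the membrane, bind matrix proteins or receptors on other cells, and connect them to actin inside the cell. The alpha subunit largely sets the ligand: collagen, laminin, proteins with an RGD motif such as fibronectin, or ligands on blood and vessel cells. Talin (TLN1) and kindlin (FERMT2) bind the beta subunit and switch the receptor on, the ILK and parvin (PARVA) complex ties it to actin, and focal adhesion kinase (PTK2), paxillin (PXN), zyxin (ZYX), testin (TES) and tensin (TNS1) signal from or strengthen the adhesion. In the trabecular meshwork, these contacts hold cells to the collagen beams and to the loose matrix next to Schlemm's canal, and their pull on that matrix bears on outflow.

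The glaucoma library held 10624 barcodes and 38765808 UMIs (unique molecular identifiers, the counted transcripts), and the normal library 7028 barcodes and 25042621 UMIs. After filtering, 8337 and 5385 cells were kept, with medians of 2751 and 2702 UMIs per cell; 11 kept barcodes occurred in both libraries. The cells formed 25 clusters, of which 19 were named by marker genes and 6 stayed unnamed (18.4% of kept glaucoma cells and 4.66% of kept normal cells). In all, 9 cell classes held at least 50 cells in each library and were compared. Trabecular meshwork-like cells numbered 1200 and 825, but their make-up differed: cluster 3 supplied 80.0% of the glaucoma and 17.0% of the normal cells, and cluster 7 supplied 17.8% and 68.8%. The largest unnamed cluster, cluster 9, was led by CYTL1, CCK, MGARP and BMP3 and also carried muscle markers. Levels are given as CPM, the UMIs of a gene scaled to a class total of 1000000 UMIs, with 95% exact Poisson intervals and the glaucoma library first. With 1 library per group there was no spread between animals and no test, so each interval covers counting error only and each difference is one between these libraries.

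Subunit use differed by cell class, and most members had their highest level in the same class in both libraries. Over all kept cells, 26 members had at least 100 UMIs. The highest of the 9 classes was the same in both libraries for 20 of the 26, against 59.8% of all features with that many UMIs. For 15 of the 20, the interval of the ratio to the second class excluded 1 in both libraries. The share of all features that would pass this was not counted, so the 15 cannot be set against it. For 19 of the 26, the shared highest class was also at least 2-fold above the median class in both libraries, against 39.0% of all features. ITGB1 was under 2-fold in the glaucoma library, and ITGA11 and ITGB7 were counted because their median class was at 0 in at least 1 library. The members were left out of the genes that set the clusters, although genes that vary with them were not.

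**Figure D1:**
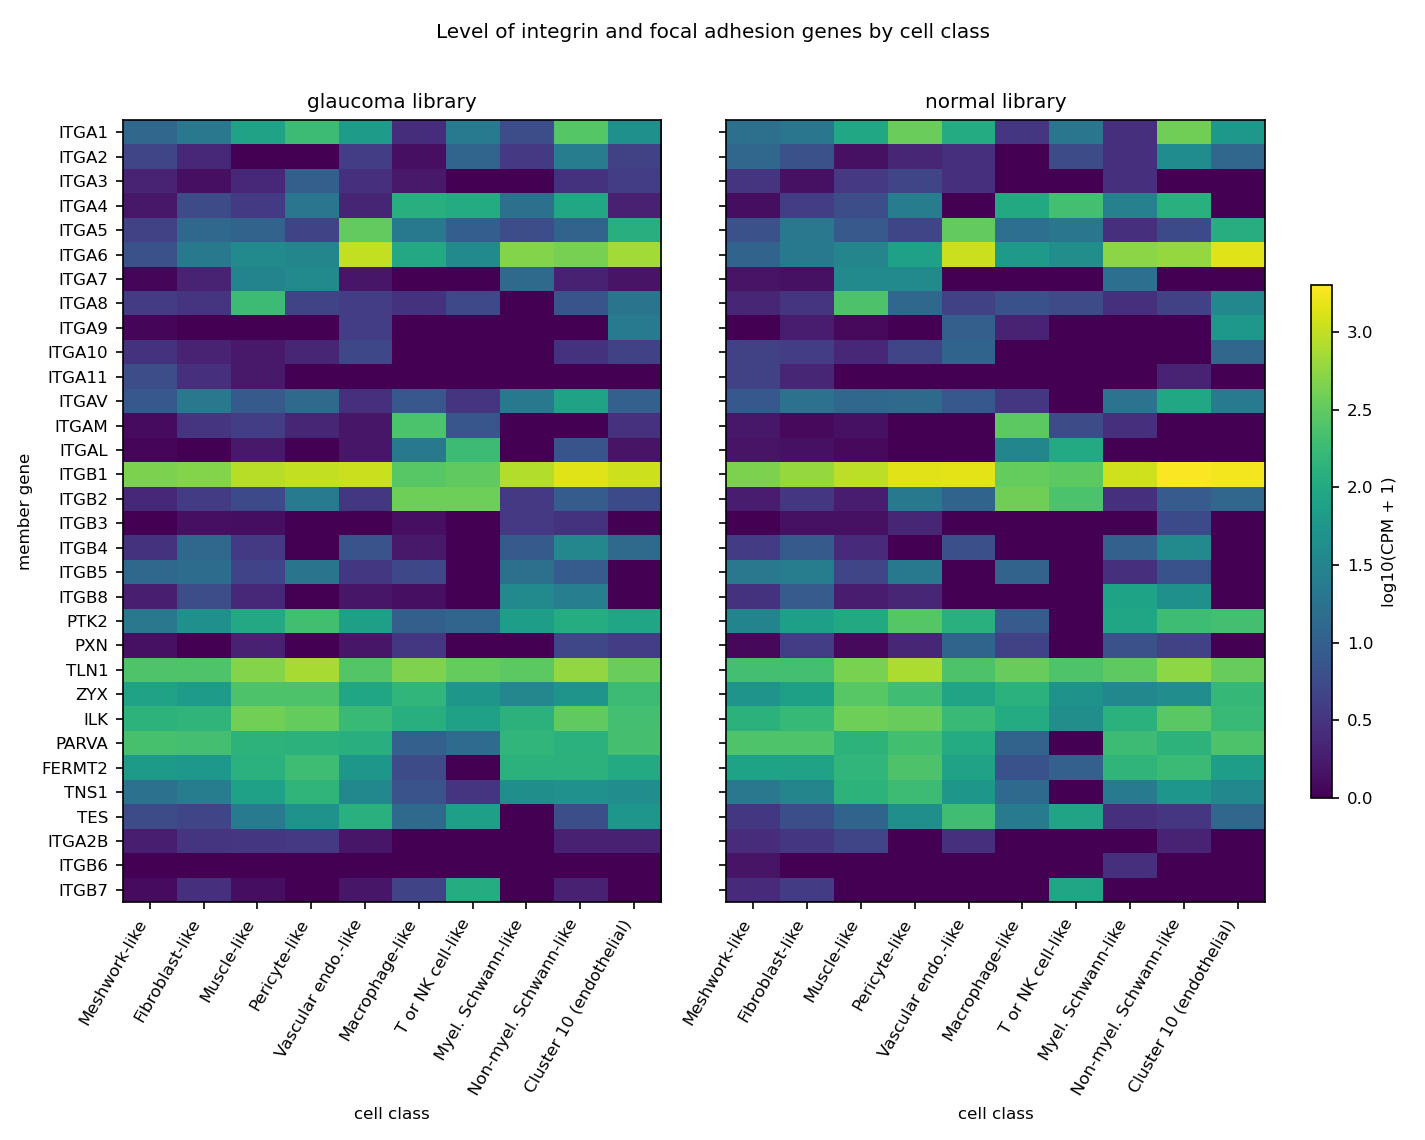
Level of each member (rows) in 9 cell classes and cluster 10 (columns) of the glaucoma and the normal library, as log10(CPM + 1) on a colour scale; cluster 10, an endothelial cluster with 32 normal cells, is shown but was not compared. ITGB1 and TLN1 are found in every class, while ITGA5, ITGA8, ITGAM, ITGAL and ITGB7 stand out in 1 class or in vessel or blood cells.

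ITGB1, the beta subunit that pairs with most collagen, laminin and fibronectin alpha subunits, was detected in every class. Its level was highest in non-myelinating Schwann-like cells at 1364 CPM (1292 to 1440) for glaucoma and 1894 CPM (1804 to 1988) for normal. Vascular endothelium-like cells were the next class as a whole, at 1082 and 1443 CPM. The white blood cell classes were lowest, with macrophage-like cells at 277 and 331 CPM and T or NK cell-like cells at 316 and 298 CPM. Trabecular meshwork-like cells were the lowest of the other 7 classes, at 449 CPM (434 to 464) and 452 CPM (435 to 469), with a UMI in 86.7% and 84.1% of cells.

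Blood vessel cells held the fibronectin receptor subunit ITGA5 and the laminin receptor subunit ITGA6. ITGA5 stood at 320 CPM (293 to 348) and 322 CPM (277 to 372) in vascular endothelium-like cells, and the next of the 9 compared classes was 15.4-fold and 16.2-fold lower. In trabecular meshwork-like cells ITGA5 was at 3.48 and 5.63 CPM. ITGA6 was at 1003 CPM (955 to 1052) and 1077 CPM (993 to 1166) in vascular endothelium-like cells, above myelinating Schwann-like cells at 485 and 529 CPM and non-myelinating Schwann-like cells at 416 and 604 CPM. Cluster 10, an endothelial cluster marked by CCL21, MMRN1 and FLT4 whose leading genes also included PECAM1, RAMP2 and EGFL7, carried both: ITGA6 was at 691 and 1369 CPM and ITGA5 at 119 and 113 CPM, with 552 and 32 cells. ITGA9, known from lymphatic valves, had 43 and 5 UMIs there (21.2 and 56.6 CPM) and 5 and 5 UMIs in vascular endothelium-like cells (2.99 and 8.84 CPM). ITGA10, a collagen receptor subunit, was highest of the compared classes in vascular endothelium-like cells, at 4.19 CPM (1.68 to 8.63) from 7 UMIs and 10.6 CPM (3.89 to 23.1) from 6 UMIs. Testin, a LIM protein of adhesions and actin fibres, was also highest in vascular endothelium-like cells, with TES at 123 and 193 CPM.

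Contractile cells used another set. ITGA8, whose product pairs with ITGB1 and binds RGD ligands such as nephronectin, was at 180 CPM (165 to 196) and 239 CPM (226 to 253) in muscle-like cells. That class held 74.7% and 94.2% of all kept ITGA8 UMIs, and the second of the 9 compared classes was 29.2-fold and 20.7-fold lower. ITGA7, the laminin receptor subunit of muscle, was at 30.3 and 37.5 CPM in muscle-like cells and 35.5 and 37.2 CPM in pericyte-like cells, with overlapping intervals. ITGA1, a subunit for collagen and laminin, was at 180 CPM (152 to 212) and 356 CPM (316 to 401) in pericyte-like cells, second to non-myelinating Schwann-like cells at 267 CPM (236 to 302) and 379 CPM (339 to 422). The pericyte-like cluster carried muscle markers (12 genes, summed to 11204 and 10373 CPM) as well as pericyte markers (9 genes, 10418 and 10436 CPM), so its cells were not free of muscle genes.

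Schwann-like cells held the partners of several matrix receptors. ITGAV, the alpha subunit of the vitronectin-type receptors, was highest in non-myelinating Schwann-like cells at 78.1 CPM (61.5 to 97.7) and 91.2 CPM (72.3 to 114). ITGB8, which with ITGAV activates latent TGF-beta, was at 35.7 CPM (19.5 to 59.9) and 80.6 CPM (58.3 to 109) in myelinating and 24.7 and 44.5 CPM in non-myelinating Schwann-like cells. It was at 0.902 and 2.09 CPM in trabecular meshwork-like cells. ITGB4, the laminin receptor partner of ITGA6, was at 32.9 and 36.5 CPM in non-myelinating Schwann-like cells. The collagen receptor subunit ITGA2 was highest there too, at 23.6 CPM from 23 UMIs and 38.8 CPM from 34 UMIs. Non-myelinating Schwann-like cells had median depths of 965 and 1313 UMIs. They carried myelinating Schwann markers (7 genes, summed to 9911 and 8042 CPM) as well as their own (7 genes, 9582 and 13127 CPM). The part of this in the levels was not tested.

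White blood cells held the leukocyte integrins. ITGAM, the alpha subunit of the complement receptor of myeloid cells, was at 228 CPM (211 to 246) and 298 CPM (263 to 336) in macrophage-like cells, which held 95.4% and 96.7% of its kept UMIs. ITGAL, its lymphocyte counterpart, was at 183 CPM (146 to 227) and 102 CPM (64.2 to 155) in T or NK cell-like cells and 20.8 and 32 CPM in the macrophage-like class. Their shared partner ITGB2 was at 372 and 384 CPM in the macrophage-like class and 373 and 228 CPM in T or NK cell-like cells. ITGB7, a gut-homing partner of ITGA4, was at 108 and 88.5 CPM in T or NK cell-like cells. ITGA4 was less restricted, at 118 and 102 CPM in macrophage-like, 106 and 205 CPM in T or NK cell-like and 90.4 and 124 CPM in non-myelinating Schwann-like cells. As a partial measure of free RNA, from 1 gene, ITGB2 had a UMI in 0.833% and 0.606% of trabecular meshwork-like cells (median depths of 5774 and 7393 UMIs), against 67.9% and 61.3% of macrophage-like cells (4003 and 4239 UMIs). In the other direction, 13 trabecular meshwork markers summed to 433 and 401 CPM in macrophage-like and 534 and 242 CPM in T or NK cell-like cells. How much of that was free RNA was not tested.

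**Figure D2:**
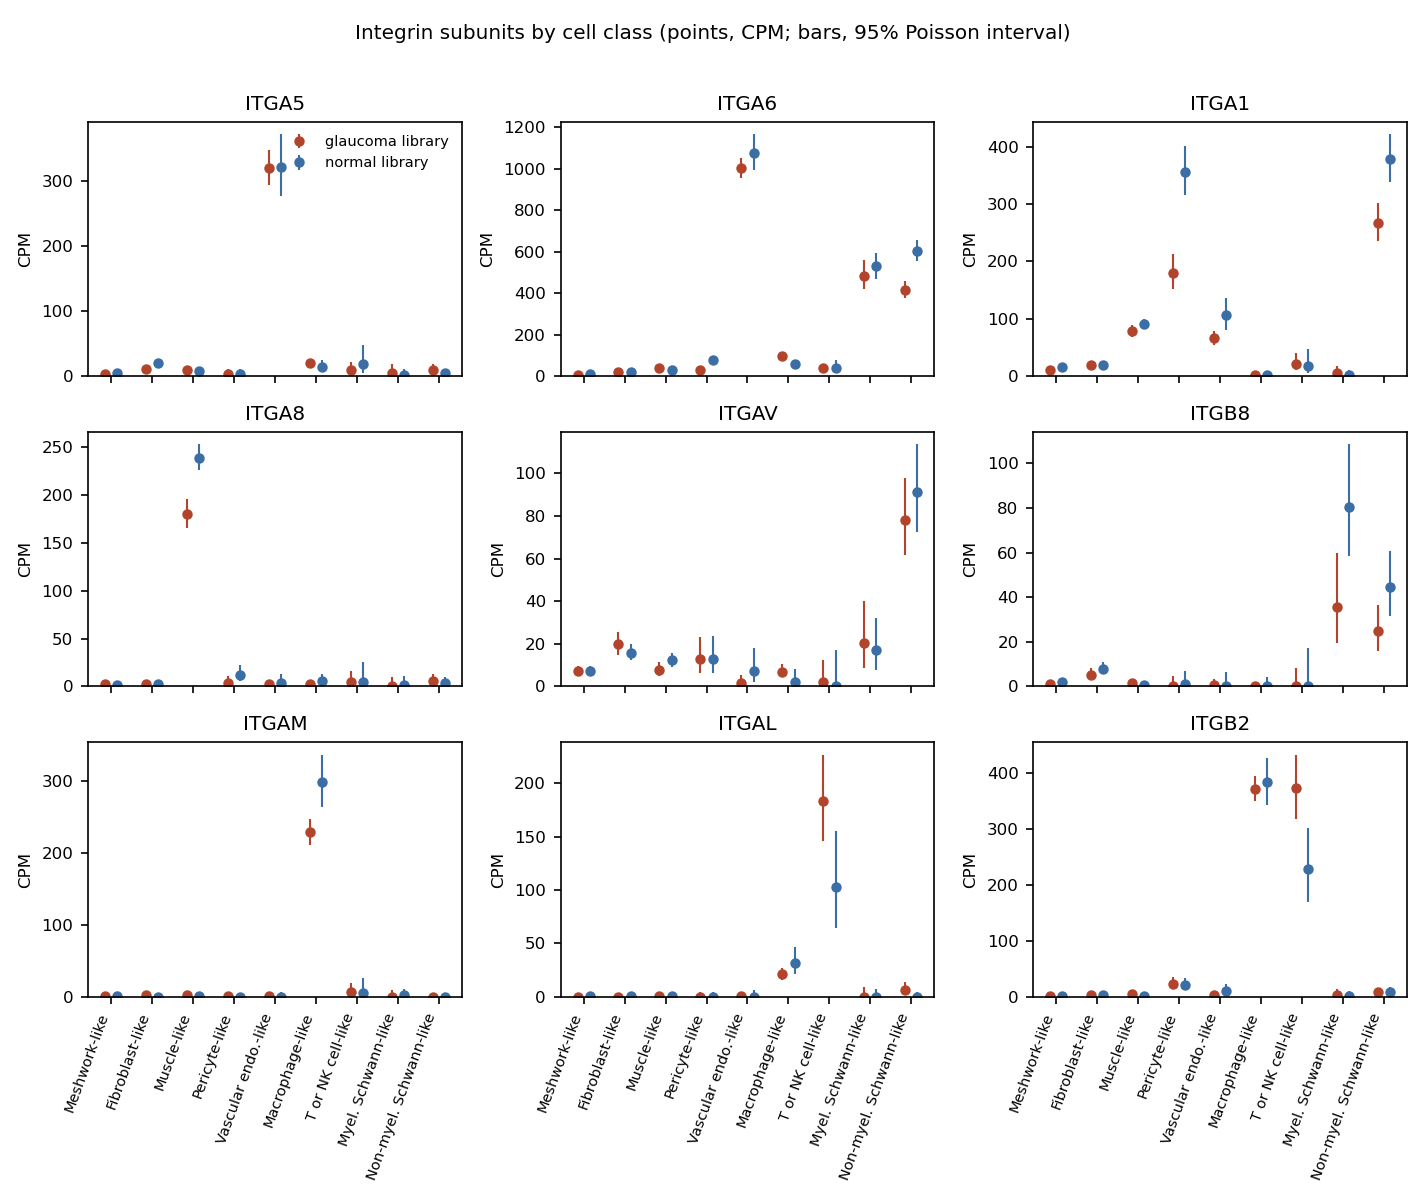
Level in CPM (vertical axis, linear from 0) of 9 integrin subunits in the 9 classes compared, with points for the glaucoma (red) and normal (blue) library and bars for 95% Poisson intervals. ITGA5 is high in vascular endothelium-like cells (320 and 322 CPM), ITGA8 in muscle-like cells (180 and 239 CPM) and ITGAM in macrophage-like cells (228 and 298 CPM).

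Among the alpha subunits with at least 100 UMIs in all kept cells, ITGA11, a receptor subunit for fibrillar collagen, was the one with its highest class in trabecular meshwork-like cells in both libraries, at 5.03 CPM (3.57 to 6.87) from 39 UMIs and 3.38 CPM (2.09 to 5.16) from 21 UMIs. Stromal fibroblast-like cells followed at 1.79 and 1.26 CPM. The alpha subunits among the members that reached 100 UMIs in this class, both libraries summed, were ITGA1 at 11.5 and 15.8 CPM, ITGA2 at 3.87 and 11.4 CPM, ITGA6 at 5.54 and 10.3 CPM and ITGAV at 7.22 and 7.07 CPM. Each of these was higher in another class and had a UMI in at most 10.2% of trabecular meshwork-like cells. ITGB5, a vitronectin receptor partner of ITGAV, was at 11.7 and 20.3 CPM, near its levels in stromal fibroblast-like cells (13.6 and 23.4 CPM) and pericyte-like cells (17.8 and 20.5 CPM).

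Among the adaptors, 4 had their highest level by class in pericyte-like cells in both libraries, though not always by cluster (see the muscle-like clusters below). PTK2 was at 199 and 265 CPM there and 19.8 and 29.6 CPM in trabecular meshwork-like cells. TLN1 was at 731 and 783 CPM, FERMT2 at 187 and 241 CPM and TNS1 at 142 and 181 CPM. ILK, the pseudokinase at the core of its complex, was highest in muscle-like cells at 394 CPM (372 to 417) and 371 CPM (355 to 388). PARVA was highest in the fibroblast-type classes, at 220 and 247 CPM in trabecular meshwork-like and 208 and 247 CPM in stromal fibroblast-like cells. That was under 2-fold above the median class, at 132 and 135 CPM. Macrophage-like cells were at 9.36 and 10.3 CPM. ZYX was at 239 and 195 CPM in pericyte-like and 236 and 280 CPM in muscle-like cells. TLN1 and ZYX, unlike PARVA, were also present in macrophage-like cells, at 462 and 346 CPM for TLN1 and 147 and 126 CPM for ZYX.

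The remaining 6 members had under 100 UMIs in all kept cells of both libraries. ITGA3 had 55 and 40 UMIs, ITGA9 53 and 16, ITGA2B 47 and 47, PXN 28 and 32, ITGB3 7 and 9, and ITGB6 0 and 4. ITGB3 had none in trabecular meshwork-like cells, which allows up to 0.387 CPM in the glaucoma and 0.482 CPM in the normal library. These are too few to order the classes or to give a ratio between the libraries. Paxillin is a core adhesion protein in most adherent cells, so its count shows what its feature recorded here and not that the gene is off.

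The muscle-like class joined adhesion profiles that differed between its 2 larger clusters. Cluster 8 was marked by RERGL (4839 and 5617 CPM), a gene of vascular smooth muscle, and cluster 5 by DES (4282 and 2500 CPM) and the muscarinic receptor CHRM3 (1529 and 2372 CPM), with RERGL at 28.2 and 6.82 CPM. RERGL and COX4I2 were among the leading genes of both cluster 8 and the pericyte-like cluster, so RERGL was not particular to cluster 8. Of 13 members with at least 100 UMIs, 6 were at least 2-fold higher in cluster 8 in both libraries (9.53% of all features) and 1 was at least 2-fold higher in cluster 5 (8.30%). TLN1 was 7.0-fold and 4.77-fold higher in cluster 8, PTK2 6.36-fold and 6.04-fold, TES 4.80-fold and 3.74-fold, ITGA1 3.52-fold and 5.88-fold, ITGA6 3.48-fold and 14.2-fold, and ITGB1 2.01-fold and 2.10-fold. ITGA8 went the other way, at 266 and 294 CPM in cluster 5 and 50.3 and 73.8 CPM in cluster 8. ITGA7, ZYX, ILK, PARVA, FERMT2 and TNS1 were within 2-fold in both libraries. Taken alone, cluster 8 had TLN1 at 1150 and 1061 CPM, above the pericyte-like class at 731 and 783 CPM. PTK2 was at 232 and 266 CPM, against 199 and 265 CPM in that class. FERMT2 at 186 and 186 CPM and TNS1 at 110 and 173 CPM were not above it. ITGB1 was at 1343 and 1544 CPM in cluster 8, above vascular endothelium-like cells.

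**Figure D3:**
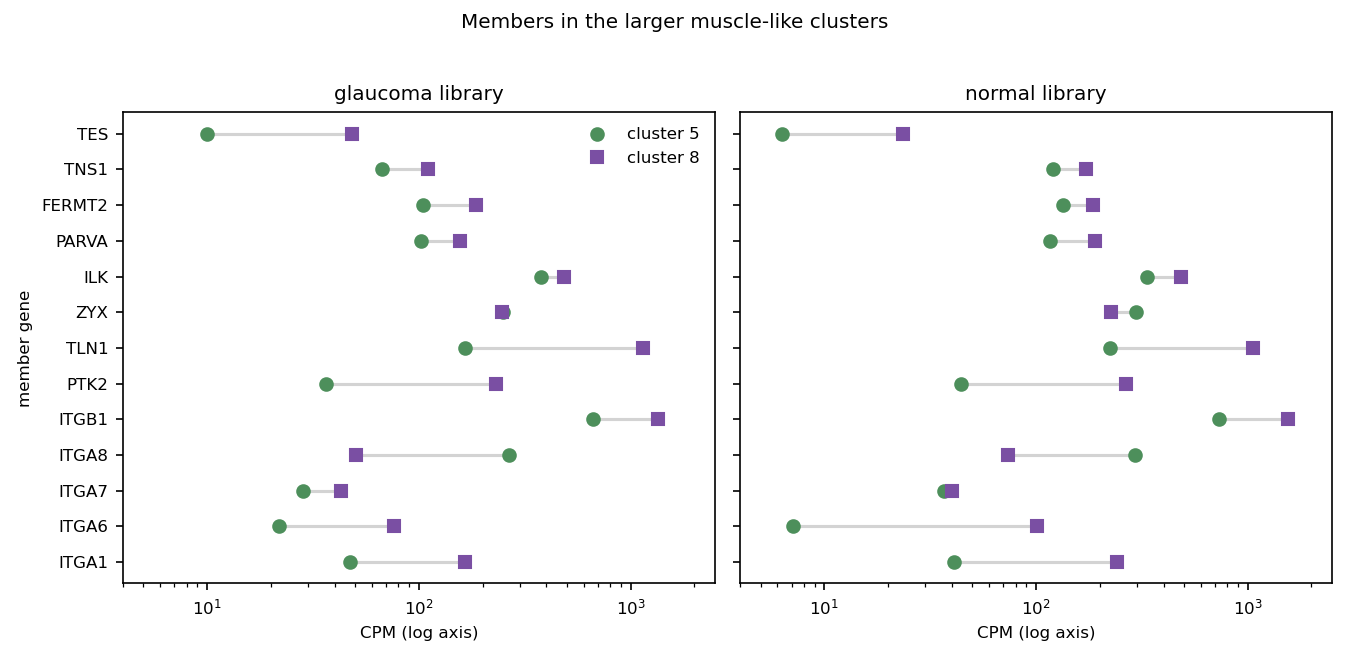
Level of 13 members in cluster 5 (green circles) and cluster 8 (purple squares) of the muscle-like class, on a log axis of CPM, for each library. TLN1 and PTK2 are several-fold higher in cluster 8 and ITGA8 is higher in cluster 5, at 266 and 294 CPM.

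These clusters also differed in depth and in other markers. Cells of cluster 5 had medians of 6287 and 5864.5 UMIs, with 16.9% and 11.3% mitochondrial UMIs, and cells of cluster 8 had 2486 and 2989 UMIs, with 6.31% and 3.48%. The 9 pericyte markers summed to 2531 and 2388 CPM in cluster 8 and 658 and 659 CPM in cluster 5, and the 12 vascular endothelium markers to 545 and 542 CPM against 290 and 159 CPM. Of these 12, 1 and 5 had no UMI in cluster 8. VWF had 3 and 0 UMIs there and PECAM1 5 and 0 UMIs, so other genes of the set carried most of its sum. The part of depth, mitochondrial share and RNA of other cell types in these differences was not tested.

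Other classes showed less division. Between clusters 3 and 7 of the trabecular meshwork-like class, 1 of 13 members was at least 2-fold higher in cluster 7 in both libraries (1.89% of all features) and 0 in cluster 3 (2.54%). That member was ITGA2, at 14.9 and 13.6 CPM in cluster 7 and 1.14 and 4.10 CPM in cluster 3, from 23, 67, 7 and 4 UMIs. No member differed 2-fold in both libraries between clusters 1 and 2 of the stromal fibroblast-like class (0 of 13; 2.18% and 1.62% of all features) or between clusters 13 and 15 of the macrophage-like class (0 of 8; 2.78% and 2.11%).

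Between the libraries, few members differed 2-fold within a class. A member counted as higher or lower in the glaucoma library where its CPM differed at least 2-fold, the interval of the ratio excluded 1 and the class held 100 UMIs or more of it, summed over the libraries. Of 87 pairs of member and class with that many UMIs, 2 met this rule: ITGA2 was lower in trabecular meshwork-like cells and TES higher in muscle-like cells. In trabecular meshwork-like cells, 0 of 13 members were higher (4.47% of all features) and 1 was lower (6.11%). In muscle-like cells, 1 of 13 was higher (3.15%) and 0 lower (3.49%).

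ITGA2 was at 3.87 CPM (2.61 to 5.52) in glaucoma and 11.4 CPM (8.91 to 14.4) in normal trabecular meshwork-like cells, a log2 ratio of -1.56 (-2.23 to -0.93). With the same cluster weights in both libraries the log2 ratio was -0.17. Within cluster 7 it was 0.13 (-0.62 to 0.83), and within cluster 3 -1.85 (-3.82 to 0.37), the latter from 7 and 4 UMIs. ITGA2 had under 100 UMIs in the class under the stricter cell filter and with the libraries clustered separately, and ITGA6 was then the member that met the rule. TES was at 21.3 CPM (16.4 to 27.2) and 10.6 CPM (7.97 to 13.8) in muscle-like cells, a log2 ratio of 1.00 (0.46 to 1.55). With the same cluster weights it was 0.90, under the 2-fold limit. TES was higher in the glaucoma library in both larger muscle-like clusters, at 10.0 against 6.29 CPM in cluster 5 and 48.2 against 23.6 CPM in cluster 8. Clusters 5, 8 and 22 made up 38.9%, 54.5% and 6.63% of the glaucoma muscle-like cells, and 60.4%, 39.4% and 0.193% of the normal ones. The 13 trabecular meshwork markers summed to 3176 CPM in glaucoma and 1493 CPM in normal muscle-like cells, and their part in the TES difference was not tested.

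The other 12 members of the trabecular meshwork-like class differed less than 2-fold. ZYX was the highest in ratio, at 79.4 CPM (73.2 to 85.9) in glaucoma and 49.5 CPM (44.1 to 55.4) in normal cells, a log2 ratio of 0.68 (0.48 to 0.88) that was 0.37 with the same cluster weights. TLN1 followed at 243 and 206 CPM, a log2 ratio of 0.23 (0.13 to 0.34). ITGB1 was at 449 and 452 CPM, a log2 ratio of -0.01 (-0.08 to 0.06). ITGB5 at -0.79, ITGA6 at -0.89 (-1.01 under the stricter cell filter, -1.02 with the libraries clustered separately and -1.24 at a cluster resolution of 0.5), PTK2 at -0.58, ITGA1 at -0.46, FERMT2 at -0.39 and PARVA at -0.17 had intervals below 0 (with the same weights ITGA1 became 0.10 and, in thinned cells, FERMT2 became 0.23 and PARVA 0.02), while those of ILK, ITGAV and TNS1 included 0. By cluster, ITGA6 was at 9.70 and 9.52 CPM in cluster 7 and at 4.55 and 10.2 CPM in cluster 3, the latter from 28 and 10 UMIs. ITGB5 was at 14.9 and 22.7 CPM in cluster 7 and at 11.1 and 11.3 CPM in cluster 3. The median log2 ratio of the 13 members was -0.28, beside -0.04 over all features, and it became 0.12 in thinned cells. That of the 6 integrin subunits among them was -0.62, and -0.26 with the same cluster weights. In the same cells the 12 muscle markers summed to 4015 CPM in glaucoma and 2153 CPM in normal (9 of 12 higher, and 1 at 0 in glaucoma), and the 16 stromal fibroblast markers to 14887 and 23698 CPM. Erythroid markers with a feature, 5 genes, summed to 715 and 209 CPM, and the median mitochondrial share was 3.19% and 1.56%. The part of these in the members' ratios was not tested.

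**Figure D4:**
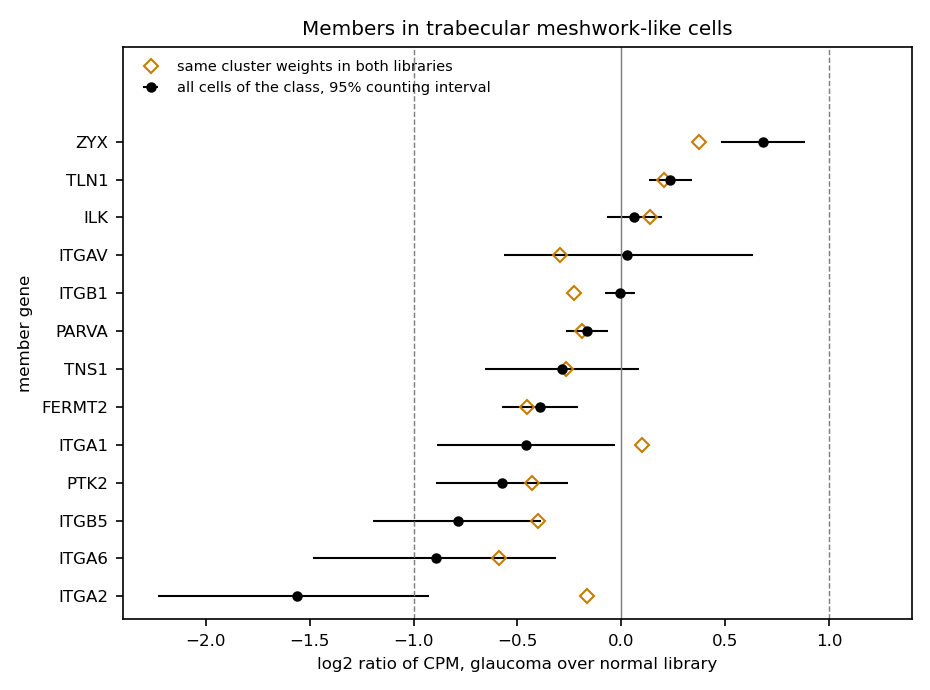
The log2 ratio of CPM, glaucoma over normal library, of 13 members in trabecular meshwork-like cells, with all cells of the class (black, 95% counting interval) and with the same cluster weights in both libraries (orange diamonds); dashed lines mark 2-fold. ITGA2 lies at -1.56 and moves to -0.17 with equal weights, and ZYX lies at 0.68.

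In the other 7 classes no member met the 2-fold rule in either direction. Stromal fibroblast-like cells had 13 members measured (1.91% of all features higher and 4.80% lower), pericyte-like 9 (2.17% and 4.77%), vascular endothelium-like 11 (1.77% and 1.60%) and macrophage-like 8 (3.10% and 4.76%). T or NK cell-like cells had 4 (4.04% and 2.56%), myelinating Schwann-like 6 (1.95% and 3.70%) and non-myelinating Schwann-like 10 (2.80% and 5.23%). ITGA1 in pericyte-like cells came nearest, at 180 CPM in glaucoma and 356 CPM in normal, a log2 ratio of -0.98 (-1.28 to -0.69). It had a UMI in 22.7% and 48.0% of cells, whose median depths were 1436 and 2245 UMIs. Unnamed cluster 9 (603 glaucoma and 70 normal cells) had 8 members with at least 100 UMIs, of which 0 were higher by the same rule (4.07% of all features) and 2, ITGA8 and TNS1, were lower (6.94%). All 8 had log2 ratios below 0, as did 2503 of the 4426 features measured in this cluster. The median of the 8 was -0.78, beside -0.10 over all features. Muscle markers in this cluster summed to 10672 CPM in glaucoma and 20464 CPM in normal cells, and their part was not tested.

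Smaller differences leaned to lower levels in the glaucoma library. The interval lay below 0 in 36 of the 87 pairs, which is 41.4% (29.8% of all pairs of feature and class), and above 0 in 9 pairs, which is 10.3% (21.8%). Pairs of the same gene are not separate observations, and a few genes gave many of them. ITGB1 gave 7 of the 36, PTK2 and FERMT2 5 each and ITGA1 4, and TLN1 gave 4 of the 9. Cells were deeper by median in the normal library in 8 of the 9 classes, all but vascular endothelium-like cells, and the part of depth was not tested. PTK2 was lower in 6 of 6 classes, with the interval below 0 in 5, and its ratio in muscle-like cells became 0.60 under a stricter cell filter and 0.08 when centred on the median feature. FERMT2 was lower in 7 of 7 classes, with the interval below 0 in 5, but it became 0.19 in muscle-like cells under the stricter filter and, with every cell thinned to 1000 UMIs, 0.23 in trabecular meshwork-like and 0.00 in myelinating Schwann-like cells. ITGB1 was lower in 8 of 9 classes, with the interval below 0 in 7, and its log2 ratios ran from -0.51 in pericyte-like to 0.08 in T or NK cell-like cells. Its sign changed by setting in T or NK cell-like, trabecular meshwork-like and muscle-like cells.

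Talin went the other way from kindlin, its partner at the beta subunit. TLN1 was higher in the glaucoma library in 7 of 9 classes, with the interval above 0 in trabecular meshwork-like, stromal fibroblast-like, muscle-like and macrophage-like cells. The largest of these 4 was the log2 ratio of 0.42 (0.24 to 0.60) in macrophage-like cells, at 462 against 346 CPM. The sign turned in trabecular meshwork-like cells at a cluster resolution of 0.5 (-0.02) and in muscle-like cells with the same cluster weights (-0.05). Of the larger muscle-like clusters, cluster 5 had TLN1 lower in glaucoma, at 164 against 222 CPM, and cluster 8 had it higher, at 1150 against 1061 CPM. ILK had no interval that excluded 0 in 8 classes. The median of all features was furthest from 0 in 3 classes, at -0.12 in stromal fibroblast-like, -0.13 in muscle-like and 0.14 in T or NK cell-like cells, and lay between -0.09 and -0.01 in the other 6.

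**Figure D5:**
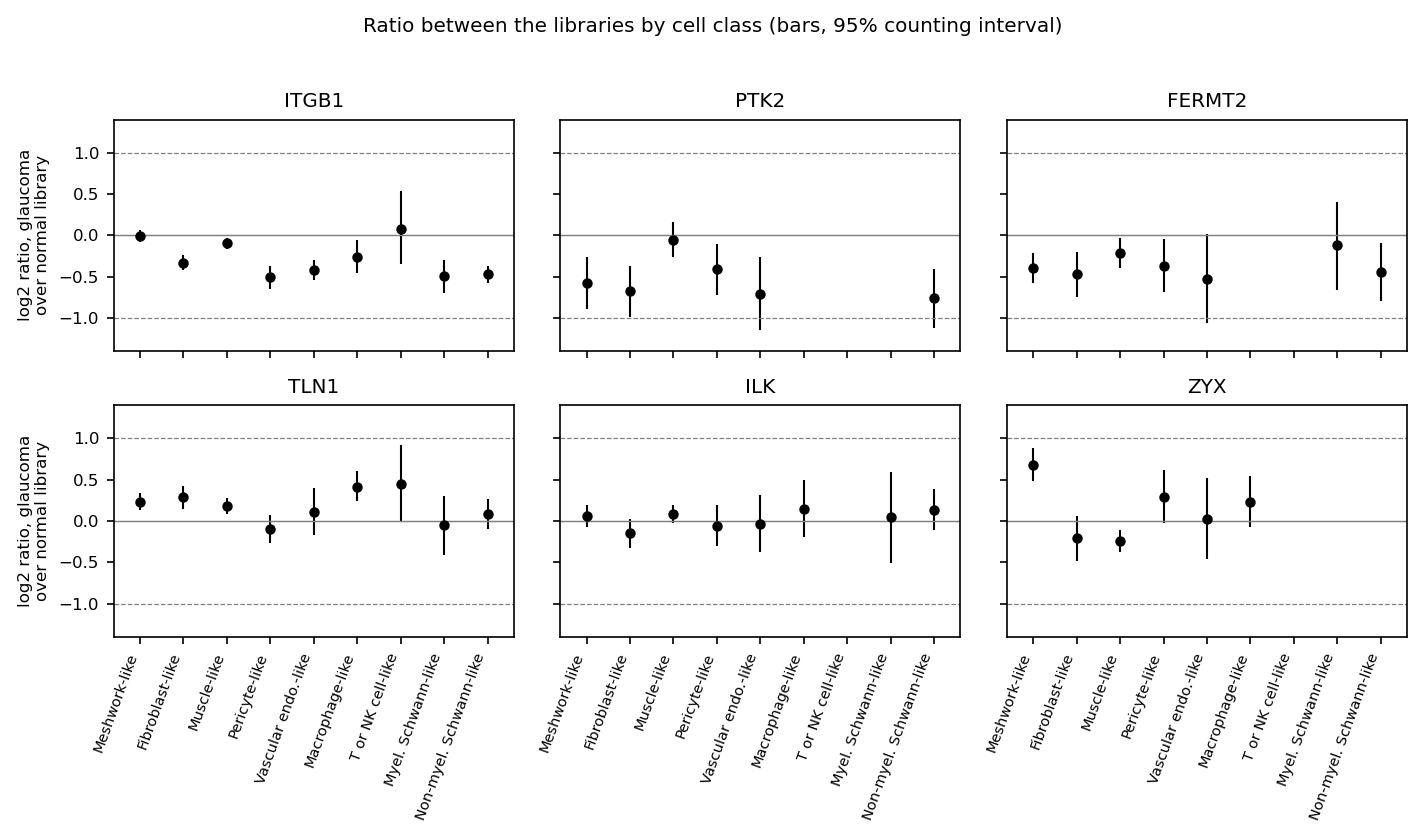
The log2 ratio of CPM, glaucoma over normal library, of ITGB1 and 5 adaptors in each class with at least 100 UMIs, with 95% counting intervals; dashed lines mark 2-fold. FERMT2 lies below 0 in 7 of 7 classes and PTK2 in 6 of 6, while TLN1 lies above 0 in 7 of 9; all 3 change sign in muscle-like and FERMT2 and TLN1 in trabecular meshwork-like cells under at least 1 other setting given in the text.

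Leukocyte integrins differed by subunit. In T or NK cell-like cells ITGAL was at 183 CPM in glaucoma and 102 CPM in normal, a log2 ratio of 0.84 (0.15 to 1.59), and ITGB2 at 373 and 228 CPM, a log2 ratio of 0.71 (0.24 to 1.20). These rest on 313 and 113 cells, in which 8 B or plasma cell markers summed to 53.0 and 261 CPM; the part of those was not tested. Among macrophage-like cells ITGAM stood at 228 and 298 CPM, a log2 ratio of -0.39 (-0.59 to -0.17), its partner ITGB2 at 372 and 384 CPM, a log2 ratio of -0.04 (-0.22 to 0.14), and ITGA6 at 98.5 and 59.4 CPM, a log2 ratio of 0.73 (0.30 to 1.19). The intervals of ITGAM and ITGB2 overlapped, and their difference was not tested.

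Other adhesion genes were grouped in 8 lists. Over the lists, 103 genes were measured in trabecular meshwork-like cells, of which 8 were higher, which is 7.77% (4.47% of all features), and 9 lower, which is 8.74% (6.11%). With the same cluster weights 2 were higher and 4 lower. Among 24 measured matrix ligands of integrins, 2 were higher and 4 lower, with a median log2 ratio of 0.21. SPP1 (osteopontin) at 1.34 and THBS1 (thrombospondin) at 1.32 were higher, and EDIL3 at -2.52, TNC (tenascin-C) at -2.27, TGFBI at -2.06 and MFGE8 at -1.06 were lower. With the same cluster weights these became 0.18, 0.86, -1.06, -1.10, -0.96 and 0.28. TGFBI, a secreted matrix protein bound by several integrins, was at 118 CPM in glaucoma and 493 CPM in normal cells.

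Among 5 measured cell surface ligands, VCAM1, the ligand of ITGA4 receptors, was higher at 30.2 against 12.4 CPM (log2 ratio 1.28, and 1.22 with the same weights), and THY1 was lower at -1.36 (-0.37 with the same weights). Among 9 regulators of activation, CIB1 was higher at 12.4 against 3.54 CPM (1.81, and 1.80 with the same weights), APBB1IP, which brings talin to the membrane, was lower at -1.28 (-0.40), and the median was -0.19. In the ILK, PINCH and parvin complex 0 of 4 differed 2-fold, from LIMS2 at -0.61 to RSU1 at 0.74. Among 24 LIM and actin linkers, FHL2 at 1.17 (0.35 with the same weights) and FHL3 at 1.02 (0.95) were higher and PDLIM5 at -1.06 (-0.75) was lower, with a median of -0.16. Among 23 adhesion kinases and signalling adaptors, the kinase FYN was higher at 1.21 (0.33) and PAK1 lower at -1.63 (-0.61), with a median of -0.18. Among 12 tetraspanins and membrane partners, the heparan sulfate receptor SDC4 was lower at -1.30 (-1.12), and the median of -0.46 became 0.10 with the same weights. The list for subunits outside the members had 2 measured genes. The subunit ITGAE was higher at 40.5 against 19.9 CPM (1.02, and 0.93 with the same weights). The integrin beta-like gene ITGBL1, which is not itself a subunit, was at 0.03.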

How the data were processed

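Per the labels, dissociated tissue was loaded for droplet capture and 3' libraries; the file headers name Cell Ranger 6.0.0 and the submitters' processing notes Cell Ranger 4.0 and Seurat 3.0. The genome build and annotation are not given in the sources used here, so no coordinates are printed. The authors deposited 1 matrix of UMI counts per library.

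Barcodes with at least 500 genes and under 20% mitochondrial UMIs were kept, and Scrublet doublets removed (3.43% and 0.829%). Cells were clustered jointly (scanpy 1.11.5; 2000 variable genes without the members, 30 components, Leiden resolution 1) and named from 19 marker sets by a rule settled after the clusters were seen: at least 3 markers, and no other set with as many of the 10 leading genes. As an exception, cluster 10 passed as lymphatic-type with 3 vascular and 2 lymphatic markers among those 10 and is given by number. Counts were summed per class and library. Ratios carry exact conditional binomial (Clopper-Pearson) intervals. Equal weights average the clusters alike in both libraries. The calculation was tested on simulated data. Named genes are all members and, per list, those past the rule in trabecular meshwork-like cells (otherwise the extremes). Members, lists and rules were chosen with earlier results of these data known. Counts are not scaled by gene length, so levels are compared across classes, not between genes.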

Additional observations from a re-analysis of the deposited data

Results flagged for a closer look

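For 3 members the counting intervals lay on opposite sides of 0 in a pair of classes. The share of all features with such a pair was not counted. With 1 library per group, these differences between classes were not tested. ITGA6 had a log2 ratio of glaucoma over normal of 0.73 in macrophage-like and -0.89 in trabecular meshwork-like cells, a difference of 1.62. Within the trabecular meshwork-like class it was at 9.70 and 9.52 CPM in cluster 7 and at 4.55 and 10.2 CPM in cluster 3. ZYX was at 0.68 in trabecular meshwork-like and -0.24 in muscle-like cells, a difference of 0.93. Of the larger muscle-like clusters, cluster 5 had ZYX lower in glaucoma, at 250 against 298 CPM. Cluster 8 had it higher, at 248 against 225 CPM. TES was at 1.00 in muscle-like and -0.65 in vascular endothelium-like cells, a difference of 1.65.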

How the results depend on the processing

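No paired analysis was possible because each group has 1 library. For 33 single member values under up to 11 settings, 321 of 362 values stayed the same, 33 moved, 8 fell short of 2-fold or of an interval excluding 1, 0 reversed a call and 23 changed sign. The 321 overstates stability. For a value not called, the same means inside the main interval, even with another sign. Dropping the UMI minimum cannot change a ratio, nor can equal weights in a class of 1 cluster. The members with 1 highest class numbered 16 to 24. In trabecular meshwork-like cells, the count of members higher (0) became 1 with no UMI minimum. The count lower there (1) became 0 when members were used to cluster, with every barcode, with cells thinned to 1000 UMIs and with the same cluster weights, and 2 with no UMI minimum. It stayed 1 with another gene in place of ITGA2 under the stricter filter and with separate clustering (ITGA6) and at resolution 0.5 (ITGA8, at -1.32). Over all classes, the count higher (1) became 0 under the stricter cell filter, with every barcode, with libraries clustered separately, with thinned cells and with the same cluster weights, and 6 with no UMI minimum. The count lower over all classes (1) became 0 when members were used to cluster and with the same weights, 2 with doublets kept, with every barcode and at resolution 0.5, 3 under the stricter filter and with separate clustering, and 8 with no UMI minimum. The median of members in trabecular meshwork-like cells (-0.28) became 0.12 with thinned cells. Of the other adhesion genes, 8 higher became 12 with doublets kept, 10 under the stricter filter, 5 with separate clustering, 3 at resolution 0.5, 3 with thinned cells and 2 with the same weights, and 9 lower became 2 when members were used to cluster, 3 with thinned cells, 16 with no UMI minimum and 4 with the same weights. The ITGA2 ratio was -0.90 at resolution 0.5 and -1.04 in thinned cells, and the TES ratio 0.80 with every barcode, 0.96 with separate clustering and 0.17 in thinned cells. Thinning left out 868 and 545 shallower cells, and the stricter filter left 8 classes, without T or NK cell-like cells. The causes were not tested.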

Other observations

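In the unnamed cluster 9 (603 glaucoma and 70 normal cells), which carried trabecular meshwork and muscle markers, the log2 ratios of the 8 members measured ran from -1.78 for ITGA8 to -0.26 for ZYX. ITGA8 was at 21.6 CPM in glaucoma and 74.3 CPM in normal, a log2 ratio of -1.78 (-2.41 to -1.12), of which 25.8% of the normal UMIs came from 1 barcode; without the barcode with most UMIs in each library the ratio was -1.43. TNS1 was at 23.4 and 79.1 CPM, a log2 ratio of -1.76 (-2.36 to -1.12). ILK was at 183 and 345 CPM, a log2 ratio of -0.91, and FERMT2 at 87.7 and 163 CPM, a log2 ratio of -0.89. The muscle markers in this cluster summed to 10672 CPM in glaucoma and 20464 CPM in normal cells, and their part in these ratios was not tested. These 4 genes were named after their values were seen.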
